A study of Mus musculus with 6 samples.

Results

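Sphingolipid and ceramide enzymes in this liver data set are 10 genes, Sptlc1, Sptlc2, Cers2, Cers6, Degs1, Sgms1, Sgms2, Ugcg, Sphk2 and Acer2, out of 20673 genes in the deposited tables. They were chosen by name, as genes whose symbol in the FPKM table equals a listed one, and their read counts were joined by Ensembl identifier, which found all 10. RNA was sequenced from the livers of C57BL/6J mice of about 12 weeks, 3 fed a regular diet (RD) and 3 fed a high-cholesterol diet (HCD) for 3 days, with 1 library for each liver. The mice carried no transgene or deletion named in the labels, both sexes were used in the study, and HCD holds cocoa butter, cholesterol and sodium cholate, so that the fat, cholesterol and bile acid of the feed change together. Livers are called RD 1 to RD 3 and HCD 1 to HCD 3 after the replicate numbers in their labels, which have no order. The library names in the labels begin with A for RD and with Liver for HCD. What this naming stands for is not stated, and it cannot be told apart from diet. The question put to these genes is whether HCD for 3 days changed their RNA.

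Sphingolipids are membrane lipids built on a long-chain amino alcohol. Serine palmitoyltransferase starts the pathway by joining serine to palmitoyl-CoA, ceramide synthases add a second fatty acid, and a desaturase then yields ceramide, from which sphingomyelin and glucosylceramide are made and which ceramidases break down to sphingosine, the substrate of sphingosine kinases. In liver, ceramide is known for its link to insulin resistance and lipid storage, and sphingomyelin holds cholesterol in membranes and lipoproteins.

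None of the 10 enzymes passed the test between the diets. Transcripts of 8 were higher on average with HCD and those of 2, Sptlc1 and Sphk2, were lower, where 50.7% of all genes tested were above 0. Of these 8, 5 (Cers6, Degs1, Sgms2, Ugcg and Acer2) changed direction in 1 or more alternative analyses. Each difference missed an adjusted p of 0.05 (quasi-likelihood test of edgeR, adjusted after Benjamini-Hochberg across the 13105 genes that entered it). Thus 0 of 10 were called, against 3.27% of all genes tested. At an unadjusted p of 0.05 or less, 1 of the 10 (Sgms1) passed, a range in which 20.9% of all genes tested lie, and DESeq2 called 0 of 10 where it called 8.53% of all genes. In 1 enzyme (Cers2) the livers of the diets did not overlap, against 27.6% of all genes tested. Across the 10 enzymes the median log2 fold change, HCD over RD, was 0.16, and across all genes tested 0.01, and without HCD 1 the enzymes' median was 0.04. Levels of the enzymes spanned a wide range, and livers of the same diet differed most for Cers6, Ugcg, Acer2 and Sgms1.

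The RD libraries held 13771630 to 23129576 counts and the HCD libraries 13935491 to 18545549, so that the least covered enzyme, Acer2, still had 61 to 254 counts per liver and Cers2 had 4046 to 6230. The targets of sterol sensing went with the diet labels. Sqle, the squalene epoxidase of cholesterol synthesis, fell by 4.33 on the log2 scale (adjusted p = 0.000736) and Hmgcs1, the synthase that precedes the statin step, fell by 1.09 (adjusted p = 0.038, both in edgeR's quasi-likelihood test). The call of Hmgcs1 was lost in 8 of 16 alternatives, among them each single liver left out except HCD 1, with no change of direction. HCD 1 stood apart in that it alone held reads of Xist, the RNA of the inactive X chromosome (5032 counts against 0). It also held no read of 4 Y-linked genes, which summed to 1075 to 2666 counts in the others. By these reads HCD 1 came from a female and the other livers from males, although the labels do not give sex. Sex was thus unbalanced between the diets, and a fit without HCD 1 is also a fit of males only. HCD 3 differed from the others in another way, with reads of 15024 genes against 16603 to 17804 genes in the other livers. It was the lowest liver for Sptlc1, Ugcg and Sphk2 and the highest for Cers2 and Acer2. Enzymes whose values rest on HCD 1 are given with and without it. The labels say nothing further of the mice behind the libraries, so that p-values measure only the spread between these 6 livers, which may be technical in part.

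**Figure D1:**
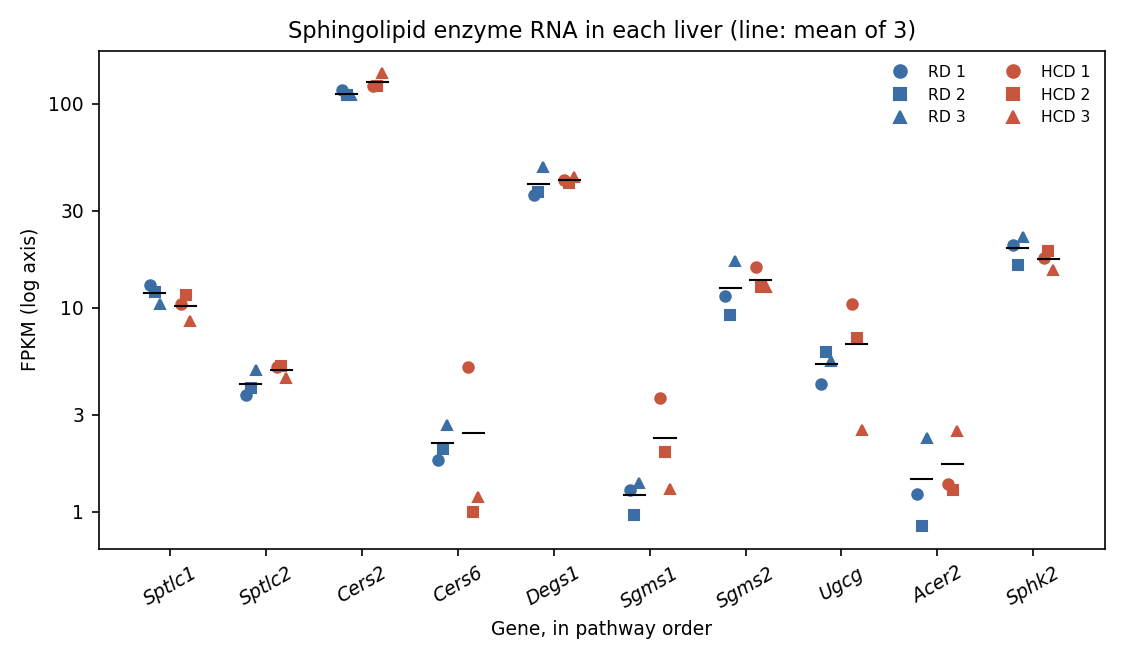
RNA level of each enzyme in FPKM (log axis), in pathway order, for the 6 livers; blue is RD, red is HCD, the symbol gives the replicate and the line is the mean of 3. Cers2 lies between 110 and 141 FPKM in all livers, while Cers6, Sgms1, Ugcg and Acer2 lie at 10.4 FPKM or less and differ most between livers.

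The levels, in FPKM, which counts reads per kilobase of gene and so permits comparison between genes, spanned a wide range. Cers2 had a mean of 120 ± 11.6 FPKM (SD, n = 6 livers) and Degs1 of 41.5 ± 4.81 FPKM. Sphk2 followed at 18.4 ± 2.56 FPKM. The ranges of these neighbours were apart for Cers2 over Degs1 and for Degs1 over Sphk2, in each of the 6 livers. Below them lay Sgms2 at 13.1 ± 2.83 FPKM, Sptlc1 at 11.0 ± 1.5, Ugcg at 5.97 ± 2.68, Sptlc2 at 4.59 ± 0.597, Cers6 at 2.30 ± 1.51, Sgms1 at 1.75 ± 0.969 and Acer2 at 1.59 ± 0.656 FPKM (SD, n = 6). Every pair of neighbours from Sphk2 downwards had overlapping ranges over the 6 livers. Within single livers the order still held in part, since Sphk2 exceeded Sgms2, Sptlc1 exceeded Ugcg and Sptlc2 exceeded Cers6 in 6 of 6 livers, whereas Sgms2 exceeded Sptlc1, Cers6 exceeded Sgms1 and Sgms1 exceeded Acer2 in 4 of 6.

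Promoter windows from RefSeq (GRCm38.p6, 250 bases before to 50 after the start of the gene) were matched to all 10 enzymes. They are shown for the ceramide synthases Cers2 and Cers6, whose RNA differed least and most between livers of the same diet, because both windows hold the same pair of motifs. Capitals mark matches to the letters CCAAT (the box of that name), the letters CACGTG (an E box) and the letters GGGCGG (a GC box), searched on both strands. The Cers2 window is chr3:95314940-95315239 and the Cers6 window chr2:68861191-68861490, both on the plus strand and written 5′ to 3′.
Cers2: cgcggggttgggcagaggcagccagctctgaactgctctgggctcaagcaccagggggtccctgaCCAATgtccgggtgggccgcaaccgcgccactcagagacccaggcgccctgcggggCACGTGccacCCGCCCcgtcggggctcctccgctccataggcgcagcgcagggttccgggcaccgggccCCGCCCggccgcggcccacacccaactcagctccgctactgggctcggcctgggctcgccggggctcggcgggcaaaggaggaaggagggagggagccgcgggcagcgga
Cers6: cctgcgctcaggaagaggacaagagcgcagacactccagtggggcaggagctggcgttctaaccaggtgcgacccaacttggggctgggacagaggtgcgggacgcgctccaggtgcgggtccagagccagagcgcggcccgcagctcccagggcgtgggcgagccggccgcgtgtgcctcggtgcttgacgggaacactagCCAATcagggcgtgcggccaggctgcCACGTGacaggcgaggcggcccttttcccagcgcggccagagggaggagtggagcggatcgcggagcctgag

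A CCAAT match stood in 5 of the 10 windows and in 37.4% of all 32544 windows, and a GC box in 7 of 10 against 35.9%. The E box stood in 3 of 10, those of Cers2, Cers6 and Degs1, against 7.17% of all windows. TATAAA stood in 0 of 10 (13.6% of all), and TCACNCCAC, a core of sites bound by SREBP factors, in 0 of 10 (1.24% of all). The GC content was 39.0% for Sgms2 and 59.3% to 81.3% for the other 9, where the median of all windows was 53.0%. The window of Cers6 lies at the start of its GENCODE M21 gene, while that of Cers2, 1 of 2 that RefSeq lists, lies 399 bases from it.

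Serine palmitoyltransferase, the enzyme of the first and rate-limiting step, did not differ detectably between the diets in either subunit measured. Sptlc1 (ENSMUSG00000021468, chromosome 13 of GRCm38, 53332748 to 53377397, minus strand) encodes the subunit that all forms of the enzyme share. Its read counts, brought to a common library total as CPM by edgeR with TMM scaling, were 31.7, 29.5 and 24.8 CPM in RD 1 to RD 3 and 24.6, 28.5 and 20.5 CPM in HCD 1 to HCD 3. RD 1 was highest and HCD 3 lowest, and the diets overlapped. The log2 fold change was -0.22 (standard error 0.17, 95% interval -0.61 to 0.16, adjusted p = 0.491, edgeR's quasi-likelihood test). Sptlc2 (ENSMUSG00000021036, chromosome 12, 87305058 to 87388355, minus strand) encodes a catalytic subunit. Its values were 20.9, 22.9 and 26.8 CPM with RD and 27.6, 29.0 and 24.4 CPM with HCD. RD 1 and RD 2 were the lowest livers, but RD 3 exceeded HCD 3. The log2 fold change was 0.20 (standard error 0.15, 95% interval -0.15 to 0.55, adjusted p = 0.492). The other catalytic subunit, Sptlc3, was not analysed here.

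The genes that make and desaturate the ceramide backbone included the steadiest and the least steady of the 10. Cers2 (ENSMUSG00000015714, chromosome 3, 95314791 to 95323599, plus strand), the main ceramide synthase of liver, which uses very long fatty acids, was at 295, 282 and 270 CPM with RD and at 297, 309 and 347 CPM with HCD. Each HCD liver exceeded each RD liver, although HCD 1 and RD 1 were close together. The means were 282 ± 12.1 and 318 ± 25.7 CPM (SD, n = 3), a 1.12-fold difference with a 95% interval from 0.907 to 1.39, and the adjusted p was 0.512 (edgeR's quasi-likelihood test). An exact two-sided permutation test gave p = 0.1, the smallest that 3 livers against 3 allow. The SD of Cers2 between livers of the same diet was 0.09 on the log2 scale, at the 4.8th percentile of all genes tested. Cers2 shares 75 exonic bases with Setdb1 and 144 with 6330562C20Rik on the opposite strand (2.04% and 3.92% of its exonic bases).

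Cers6 (ENSMUSG00000027035, chromosome 2, 68861441 to 69114282, plus strand), which joins palmitate to the backbone, varied far more. It was at 11.0, 12.6 and 15.8 CPM with RD and at 30.2, 6.14 and 6.97 CPM with HCD. HCD 1 was the highest of the 6 livers, HCD 2 and HCD 3 were the lowest, and the RD livers lay between. Its log2 fold change was 0.15 (standard error 0.55, 95% interval -1.10 to 1.41, adjusted p = 0.903, edgeR's quasi-likelihood test) and without HCD 1 it was -1.0 (adjusted p = 0.0752), so that this liver set the sign. The SD within diets was 0.89 on the log2 scale, at the 97.3rd percentile of all genes tested. Degs1 (ENSMUSG00000038633, chromosome 1, 182275772 to 182282804, minus strand), the desaturase that turns dihydroceramide into ceramide, was at 63.5, 66.8 and 84.9 CPM with RD and at 72.9, 73.7 and 75.5 CPM with HCD. The HCD livers all lay within the range of the RD livers. Its fold change was 1.03 with a 95% interval from 0.826 to 1.29, and the adjusted p was 0.886 in the same test.

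**Figure D2:**
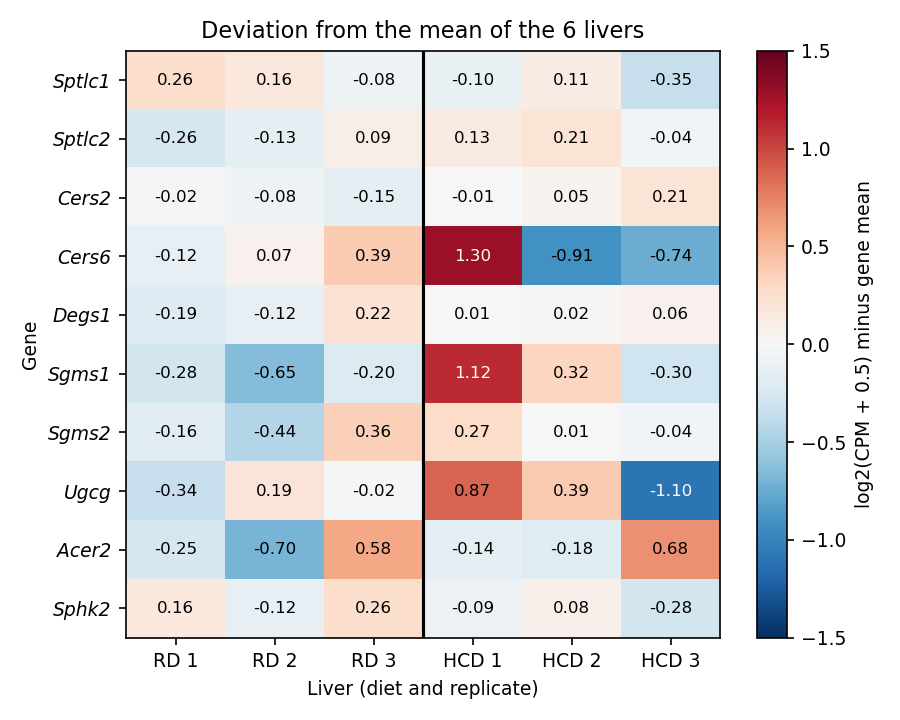
Deviation of each liver from the mean of the 6 livers, in log2(CPM + 0.5), for the 10 enzymes (rows) and the 6 livers (columns); red is above and blue below the mean, and the line parts the diets. Cers6, Sgms1 and Ugcg are highest in HCD 1, at 1.30, 1.12 and 0.87.

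The enzymes that draw on ceramide to make sphingomyelin and glucosylceramide were all higher on average with HCD, with the largest difference of the 10 in Sgms1, but no difference passed the adjusted test. Sgms1 (ENSMUSG00000040451, chromosome 19, 32122727 to 32389714, minus strand), the sphingomyelin synthase of the Golgi, was at 9.04, 6.91 and 9.60 CPM with RD and at 24.7, 14.0 and 8.92 CPM with HCD. HCD 1 and HCD 2 exceeded all RD livers, and HCD 3 lay within the RD range. The means were 8.51 ± 1.42 and 15.9 ± 8.04 CPM (SD, n = 3), a 1.87-fold difference with a 95% interval from 1.08 to 3.22. The quasi-likelihood test of edgeR gave an unadjusted p of 0.0297 and an adjusted p of 0.188, and the exact permutation p was 0.3. Without HCD 1 the log2 fold change fell from 0.90 to 0.43 (adjusted p = 0.418), and with any of the other livers left out it stayed between 0.77 and 1.17. Gene length went with diet across the libraries, the slope of a library's deviation on log2 length being 0.0412 to 0.0665 with RD and -0.0866 to -0.0114 with HCD. With that trend removed, the log2 fold change of Sgms1, whose RNA is the longest of the 10 with 10299 exonic bases, was 1.01 (adjusted p = 0.148). Among the 10 enzymes this removal moved Acer2 and Sptlc2 most, from 0.20 to 0.33 and from 0.20 to 0.32, while Sptlc1 stayed at -0.22. The sum of the Kupffer cell markers moved with the same livers, at 146 to 249 CPM with RD and 209 to 455 CPM with HCD. Of these markers 9 of 9 were above 0, though not all followed the order of the sum. Their part in the Sgms1 difference was not tested. In RNA of whole liver, more cells of a type and more RNA per cell cannot be told apart.

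Sgms2 (ENSMUSG00000050931, chromosome 3, 131318985 to 131491411, minus strand), the synthase of the plasma membrane, was at 48.8, 40.1 and 70.2 CPM with RD and at 65.8, 54.7 and 52.8 CPM with HCD. RD held both the lowest and the highest liver. The log2 fold change was 0.12 (standard error 0.21, 95% interval -0.35 to 0.60, adjusted p = 0.779, edgeR's quasi-likelihood test). Ugcg (ENSMUSG00000028381, chromosome 4, 59189257 to 59222833, plus strand) encodes glucosylceramide synthase, which opens the glycosphingolipid branch. It was at 15.2, 22.2 and 19.1 CPM with RD and at 35.9, 25.6 and 8.75 CPM with HCD. The highest and the lowest liver were both fed HCD, and the RD livers lay between. The log2 fold change of 0.32 (standard error 0.42, 95% interval -0.63 to 1.28, adjusted p = 0.704) became -0.13 without HCD 1 (adjusted p = 0.890) and 0.70 without HCD 3 (adjusted p = 0.161).

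Of the enzymes that break ceramide down and phosphorylate the sphingosine it yields, neither passed the test, and both overlapped between the diets. Acer2 (ENSMUSG00000038007, chromosome 4, 86874396 to 86934822, plus strand), a ceramidase of the Golgi, was at 6.01, 4.26 and 11.0 CPM with RD and at 6.52, 6.34 and 11.9 CPM with HCD. In both diets replicate 3 was far above the others, and the diets overlapped. The log2 fold change was 0.20 (standard error 0.40, 95% interval -0.70 to 1.11, adjusted p = 0.808, edgeR's quasi-likelihood test), and it was -0.16 without HCD 3 and 0.67 without RD 3. An unclassified transcript, Gm37954, matches 349 bases of Acer2 at 91.7% identity, so that some of its reads may be shared. Sphk2 (ENSMUSG00000057342, chromosome 7, 45709467 to 45718002, minus strand), a kinase that turns sphingosine into sphingosine 1-phosphate, was at 57.9, 47.4 and 61.7 CPM with RD and at 48.4, 54.5 and 42.3 CPM with HCD. RD 3 was highest and HCD 3 lowest, with overlap between the diets. The log2 fold change was -0.20 (standard error 0.15, 95% interval -0.55 to 0.15, adjusted p = 0.493). Sphk2 shares 539 exonic bases (13.0% of its exonic bases) with Dbp and 373 (8.97%) with Rpl18, a ribosomal protein gene of up to 214 CPM, both on the opposite strand. Whether the counting used strand is not stated in the sources used here, so reads of these stretches may not have been told apart.

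**Figure D3:**
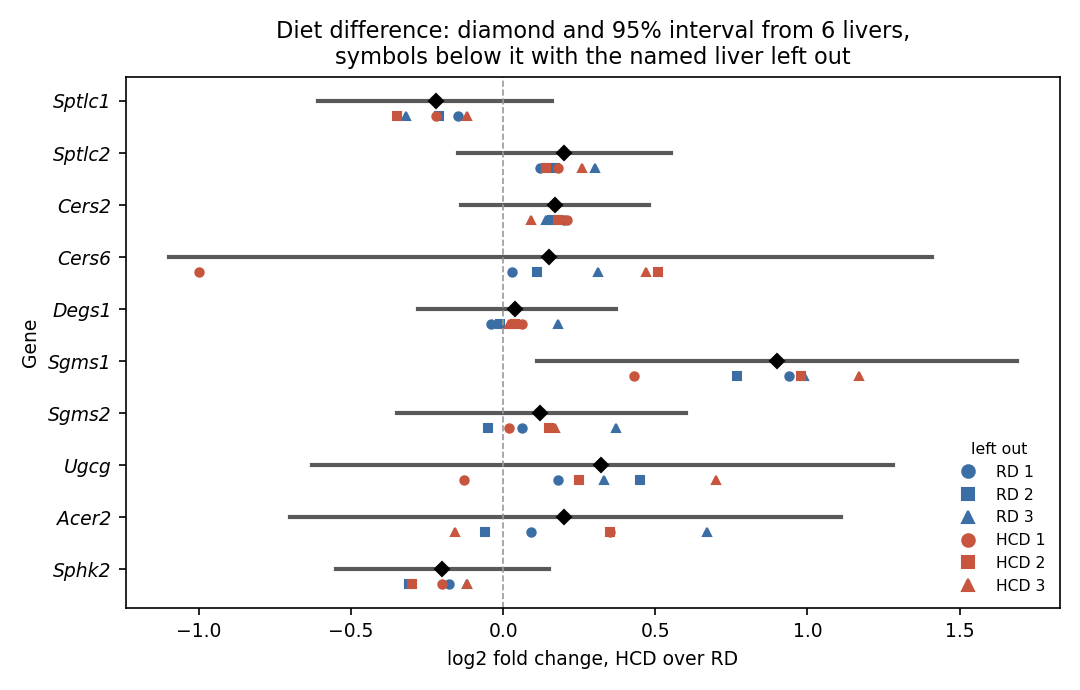
Log2 fold change of HCD over RD for the 10 enzymes, as a diamond with its 95% interval from 6 livers and, below it, symbols for the same value with the named liver left out. The interval of Sgms1 (0.11 to 1.69) lies above 0 before adjustment, and leaving out HCD 1 moves Cers6 from 0.15 to -1.0.

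The precision differed among the enzymes. For Cers2, Degs1, Sptlc1, Sptlc2 and Sphk2, the SD within diets was 0.09 to 0.21 on the log2 scale and lay between the 4.8th and the 33.5th percentile of all genes tested. For these 5 the 95% intervals of the fold change all lay between 0.655 and 1.46. Sgms2 was near the middle, at the 57.3rd percentile. Sgms1, Acer2, Ugcg and Cers6 had SDs of 0.53, 0.57, 0.75 and 0.89 and percentiles of 83.9, 86.9, 94.6 and 97.3, and their intervals of the fold change together reached from 0.465 to 3.22. HCD 1 was the highest liver for 3 enzymes (Cers6, Sgms1 and Ugcg), RD 3 also for 3 (Degs1, Sgms2 and Sphk2), and HCD 3 for 2 (Cers2 and Acer2).

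The balance between enzymes of the same step was compared as shares of summed FPKM in each liver, with exact two-sided permutation tests adjusted over the 7 shares (smallest p = 0.1). Cers2 held 95.2% to 98.4% of the RNA of all Cers genes in the 6 livers. Cers6 held 1.5%, 1.79% and 2.34% with RD and 4.0%, 0.808% and 0.817% with HCD, where HCD 1 lay above and the other HCD livers below all RD livers, and the means of both diets were 1.88%. Sgms1 made up 10.1%, 9.43% and 7.63% of Sgms1 and Sgms2 with RD and 18.5%, 13.4% and 9.26% with HCD. Most of the sphingomyelin synthase RNA was thus that of Sgms2 in each liver. The share of Sgms1 differed by 4.67 percentage points, with overlap between the diets (exact permutation p = 0.3, adjusted 0.7). Without HCD 1 this difference was 2.29 percentage points.

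Ugcg, which competes with both sphingomyelin synthases for ceramide, held 25.1%, 37.4% and 23.1% of their joint FPKM with RD and 34.7%, 32.6% and 15.2% with HCD, and the diets overlapped. Acer2 held 57.1%, 43.6% and 72.7% of Acer2 and Acer3, another ceramidase, with RD and 40.5%, 57.1% and 67.3% with HCD, again with overlap. Sphk2 accounted for 98.8% to 100% of sphingosine kinase RNA, Sphk1 having at most 13 counts in a liver. Degs1 accounted for 99.5% to 99.8% of Degs1 and Degs2 with RD and 100% with HCD (exact permutation p = 0.1, adjusted 0.7), a difference that rests on 3 to 5 counts of Degs2 per RD liver and 0 in each HCD liver.

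**Figure D4:**
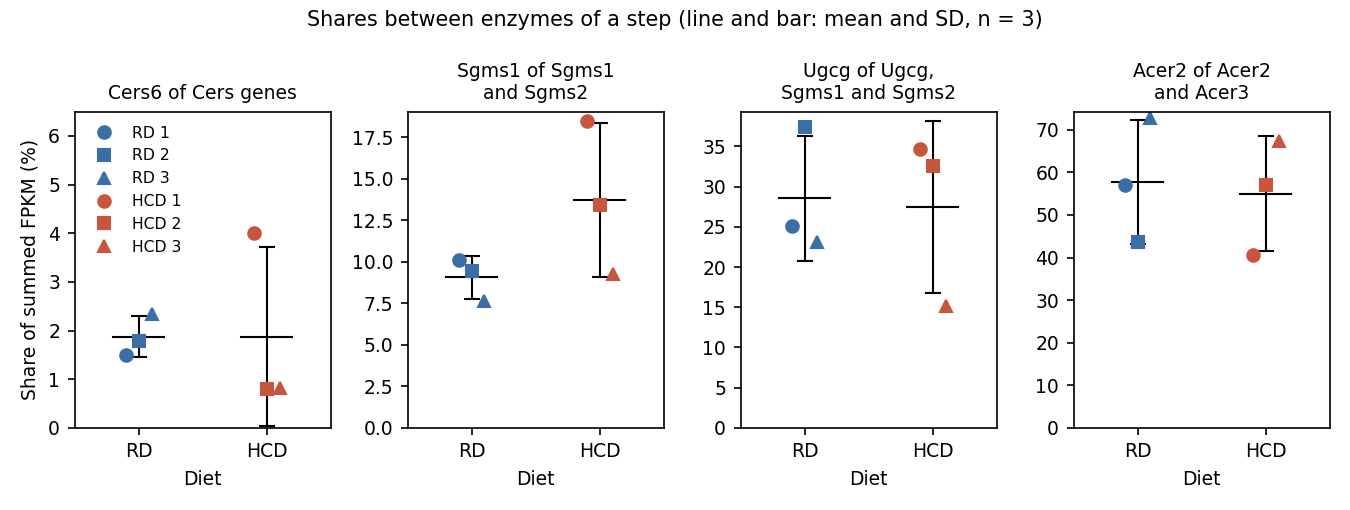
Share of summed FPKM (%) held by Cers6, Sgms1, Ugcg and Acer2 among enzymes of the same step, for each liver (symbols), with the mean and SD of 3 livers per diet (lines and bars). Sgms1 reaches 18.5% in HCD 1 against 7.63% to 10.1% in the RD livers, and the diets overlap in all 4 panels.

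The wider sphingolipid pathway was described by 66 further genes listed by role, of which 61 were in the tables and 48 had enough counts to be tested. Of these 48, 30 were above 0 and 18 below, where 50.7% of all genes tested were above 0. The median log2 fold change was 0.25 (0.15 without HCD 1). The quasi-likelihood test called 0 of the 48 (lowest adjusted p = 0.0793), against 3.27% of all genes tested. At an unadjusted p of 0.05 or less, 10 of 48 passed (8 higher and 2 lower), or about as large a share as the 20.9% of all genes. The diets did not overlap in 11 (8 higher and 3 lower), against 27.6%, and DESeq2 called 2, against 8.53%. By role, the genes above and below 0 numbered 9 and 4 for glycosphingolipid breakdown, 5 and 2 for sphingomyelin synthesis and breakdown, 3 and 2 for the formation, breakdown and export of sphingosine 1-phosphate, 3 and 1 for ceramide breakdown, 3 and 1 for lipid transfer, 2 and 3 for serine palmitoyltransferase and its regulators, 2 and 2 both for glycosphingolipid synthesis and for receptors, and 1 and 1 for the other ceramide synthases. None of these role groups held a gene that the quasi-likelihood test called.

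In each role the gene with the highest mean FPKM was taken for closer description. Ormdl3, a brake on serine palmitoyltransferase, was at 102, 86.8 and 77.8 CPM with RD and at 106, 138 and 130 CPM with HCD, without overlap (log2 fold change 0.49, standard error 0.16, adjusted p = 0.131, edgeR's quasi-likelihood test). S1pr1, a receptor of sphingosine 1-phosphate on endothelial cells, was at 108, 88.9 and 71.3 CPM with RD and at 72.9, 64.4 and 48.6 CPM with HCD (log2 fold change -0.53, adjusted p = 0.182). Only these 2 of the 9 had an unadjusted p of 0.05 or less. The remaining 7 had log2 fold changes between -0.25 and 0.21, namely 0.21 for Psap, the saposin precursor of glycolipid breakdown, -0.08 for Apom, the plasma carrier of sphingosine 1-phosphate, -0.20 for the acid sphingomyelinase Smpd1, -0.08 for the acid ceramidase Asah1, -0.25 for the ganglioside synthase St3gal5, -0.14 for the transfer protein Cptp and -0.16 for the ceramide synthase Cers5.

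Further genes with an unadjusted p of 0.05 or less were named after their values had been seen. Aldh3a2, the dehydrogenase that clears the fatty aldehyde left by sphingosine 1-phosphate lyase, was at 244, 204 and 184 CPM with RD and at 482, 336 and 295 CPM with HCD. The diets did not overlap, the log2 fold change was 0.81 (standard error 0.21) with an adjusted p of 0.0793 (quasi-likelihood test of edgeR) or 0.00397 (DESeq2). Gla, the lysosomal alpha-galactosidase, was at 3.46, 4.26 and 3.47 CPM with RD and at 6.77, 6.07 and 10.9 CPM with HCD, again without overlap (log2 fold change 1.08, adjusted p = 0.0943 in edgeR and 0.0244 in DESeq2). Ormdl2, a relative of Ormdl3, was at 19.4, 17.7 and 21.2 CPM with RD and at 14.3, 13.6 and 9.97 CPM with HCD, without overlap (log2 fold change -0.62, adjusted p = 0.109 in edgeR and 0.0697 in DESeq2). Log2 fold changes of Samd8 (0.62), Smpdl3a (0.52), Smpdl3b (2.46, from 3 to 24 counts per liver) and Sgpp1 (0.59) also lay above 0, with adjusted p between 0.101 and 0.179.

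**Figure D5:**
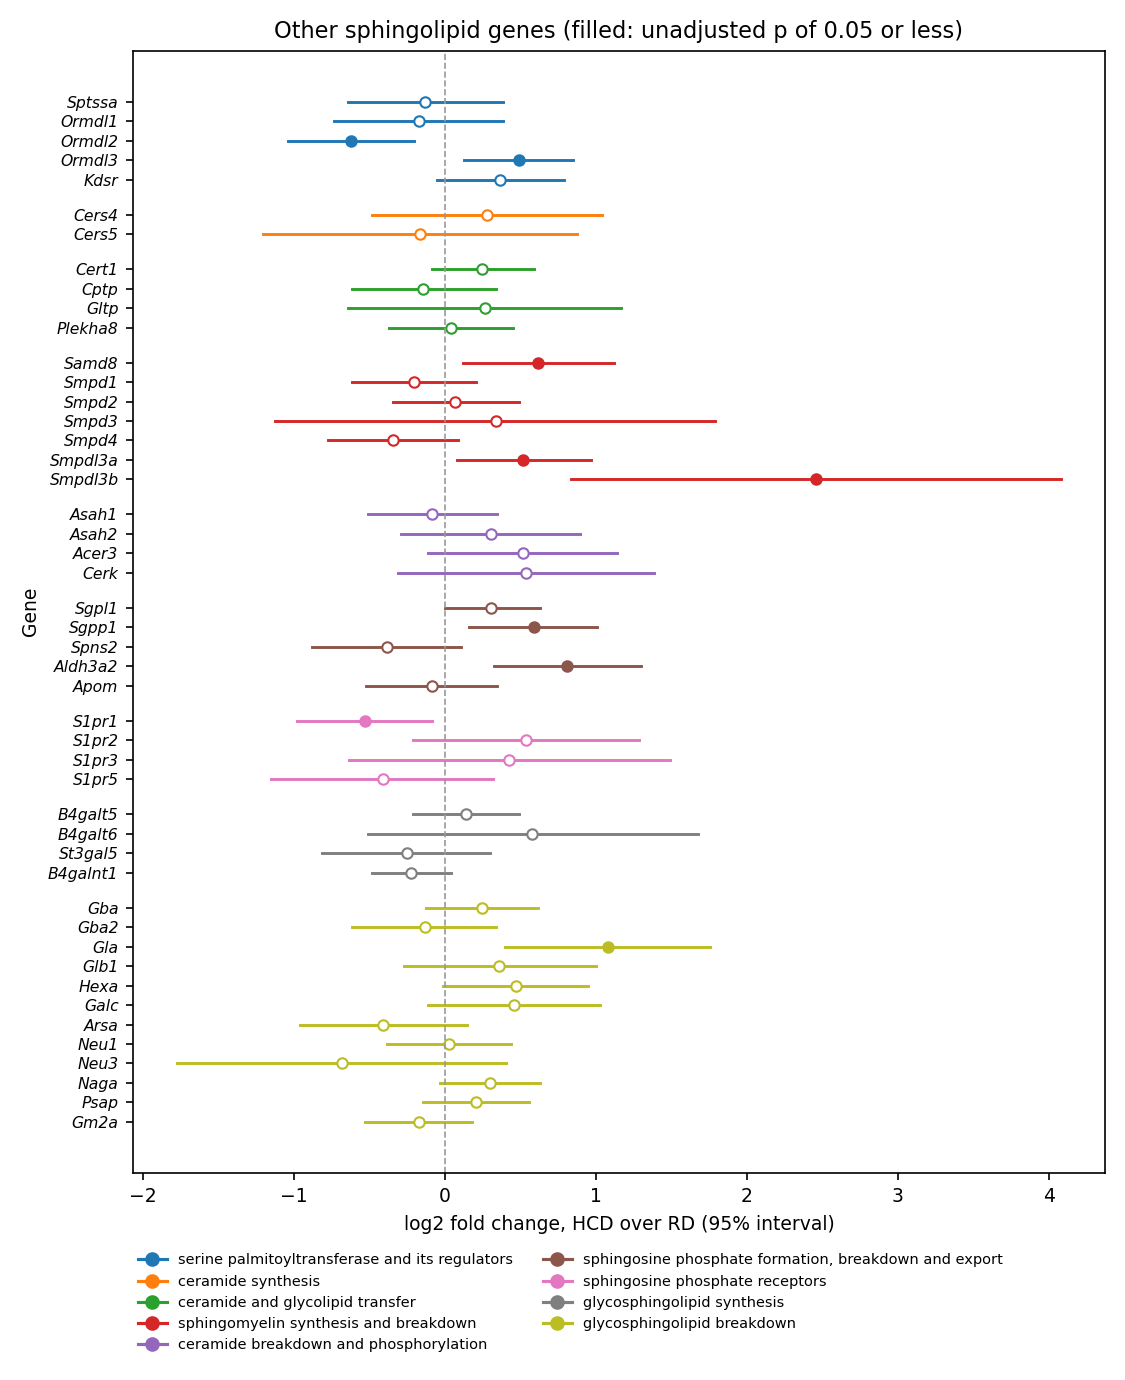
Log2 fold change of HCD over RD with its 95% interval for 47 tested genes of the wider pathway, coloured by role; filled points have an unadjusted p of 0.05 or less. Filled points number 7 above 0 and 2 below, and none of the 47 passed the adjusted quasi-likelihood test of edgeR, while DESeq2 called 2 (Aldh3a2 and Gla).

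The similarity of each enzyme to the other 57 tested genes of the pathway was described by Pearson's r of log2 CPM over the 6 livers, and is given without a test. All genes are compared over the same 6 libraries, with their differences in diet and depth. Sgms1 was close to Psap (r = 0.94). Cers2 was most like Smpdl3b (r = 0.94) and Gla (r = 0.89), Sptlc2 most like Samd8 (r = 0.92) and Hexa (r = 0.88), and Degs1 most like S1pr3 (r = 0.92) and Sgms2 (r = 0.77). For Sptlc1 the closest was S1pr1 (r = 0.87), for Sgms2 Hexa (r = 0.86), for Ugcg S1pr2 (r = 0.84), for Sphk2 Ormdl2 (r = 0.80), for Acer2 Degs1 (r = 0.77) and for Cers6 Sptssa (r = 0.75). Among the 10 enzymes themselves, r was -0.37 for the pair Sptlc1 and Sptlc2, -0.55 for Cers2 and Cers6, 0.62 for Sgms1 and Sgms2, and 0.66 for Sgms1 and Ugcg.

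Markers of liver cell types moved in part with the same livers. The hepatocyte markers were abundant throughout, with Alb at 63316 to 105649 CPM, and their median log2 fold change was 0.01. The 9 Kupffer cell markers, led by Cd5l, summed to 146, 184 and 249 CPM with RD and to 455, 406 and 209 CPM with HCD. Of these, 9 of 9 were above 0, against 50.7% of all genes tested, and the median was 0.87 (0.63 without HCD 1). The quasi-likelihood test called 0 of them, although 5 had an unadjusted p no higher than 0.05. DESeq2 called 3 of the 9 (Cd5l, C1qb and C1qc, named after their values were seen). As with Sgms1, the sum of these markers lay above all RD livers in HCD 1 and HCD 2 and within them in HCD 3. Single markers did not all follow this order. Of those named after their values were seen, Marco was highest in HCD 3 (6.89 CPM) and Adgre1 lowest there (2.76 CPM). The 8 stellate markers, led by Ecm1, summed to 328, 330 and 363 CPM with RD and to 600, 348 and 474 CPM with HCD, with 8 of 8 above 0 and a median of 0.50 (0.28 without HCD 1). Neither edgeR nor DESeq2 called any of them (0 of 8), and 1 had an unadjusted p of 0.05 or less. The 8 sinusoidal endothelial markers, led by Clec4g, summed to 130 to 226 CPM with RD and 166 to 252 CPM with HCD (6 of 8 above 0, median 0.24, and -0.00 without HCD 1).

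The leukocyte list, led by S100a9, had 3 tested genes and a median of 0.10 (-0.13 without HCD 1), the cholangiocyte list, led by Spp1, 5 tested genes and a median of 0.60, with its marker Cftr at 0 to 3 counts. Of the 5 red cell markers 2 were called higher, Hba-a1 (log2 fold change 2.41, adjusted p = 0.0217) and Hbb-bs (2.28, adjusted p = 0.0223, edgeR's quasi-likelihood test), and the list summed to 138 to 239 CPM with RD and 177 to 468 CPM with HCD. Of this list 4 of 5 were above 0, with a median of 2.28 (2.53 without HCD 1). The exception was Alas2, which acts in haem synthesis and was named after its values were seen, at 105, 105 and 154 CPM with RD and 8.24, 97.0 and 119 CPM with HCD (log2 fold change -0.70, adjusted p = 0.612 in edgeR). No marker was at 0 in all 6 livers. The part of these cells in the values of Ugcg and Cers6, and that of the sex-linked difference of HCD 1 in any enzyme, was not tested.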

How the data were processed

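Liver RNA of 3 RD and 3 HCD mice was compared, and diet and replicate were taken from the sample titles. The authors deposited read counts per gene, whole numbers without normalization, and FPKM, whose total is not stated. The deposited log2 fold changes and p-values of the authors' own comparison were not used. The submitters' processing notes name STAR, HTSeq, DESeq2, edgeR and GRCm39, without versions, and Novogene did the sequencing and analysis. The deposited tables hold no coordinates. The lengths that the counts and FPKM together imply matched those of GENCODE M21 on GRCm38 within 0.1% for 94.97% to 95.05% of genes, so M21 was used for positions. For Sgms1 they differed (10299 against 10546 bases).

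The count analysis used edgeR 4.0.16 in R 4.3.3: filterByExpr by diet left 13105 genes, TMM factors were 0.886 to 1.07, and the quasi-likelihood F test used diet alone, with Benjamini-Hochberg adjustment and calls at an adjusted p under 0.05. The standard error is the absolute log2 fold change over the square root of F, and CPM are TMM-scaled. The fit was tested on simulated data. Exact permutation tests used all 20 assignments of the 6 livers and were two-sided. Alternatives were DESeq2 1.42.0, scaling by RLE factors, by upper quartiles or by library size only, keeping all genes or only those with a mean of 50 counts or more, limma-trend (limma 3.58.1) on log2 of FPKM plus 1 or 0.1, removal of a trend with gene length (loess, span 0.5), counts per kilobase scaled with TMM for shares, a replicate block, an unadjusted p of 0.05, and each liver left out. The marker lists without HCD 1 were added after seeing the data.

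The enzymes and gene lists were chosen with earlier results of these data known. Named genes are the 10 enzymes, every called gene and the gene of highest mean FPKM of each role of the wider pathway, the gene of highest mean FPKM of each marker list, the 2 genes most like each enzyme, and sterol genes (Sqle and Hmgcs1) as a check of the diet labels. Some genes that this rule names are not reported here. Sptlc3, Acer1, Fa2h, Enpp7, St8sia1 and Ly6g were not analysed here, so the share of Acer2 is over Acer2 and Acer3. Transcripts alike over 200 bases or more, with an identity of 90% or more, were sought with minimap2 2.31. For promoters the RefSeq window nearest the M21 start was used. Tables and figures were made with Python 3.11.15 and matplotlib 3.10.9. Depth was 13771630 to 23129576 counts per library.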

Additional observations from a re-analysis of the deposited data

How the results depend on the processing

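No alternative called any of the 10 enzymes at an adjusted p under 0.05, and 5 of them (Sptlc1, Sptlc2, Cers2, Sgms1 and Sphk2) kept their direction in all 16 alternatives, 10 of which kept all 6 livers. An unadjusted p of 0.05 or less passed 1 enzyme, 10 of the wider pathway and 2739 of all genes. The number of genes called was 428, and it was 1118 with DESeq2, 649 without a filter, 255 with the length trend removed, 136 with the replicate block and 36 to 335 with 1 liver left out. Of the wider pathway, DESeq2 called 2 (Aldh3a2 and Gla), no filter 1 (Aldh3a2), and leaving out 1 liver 0 to 1 (Samd8 without RD 3, log2 fold change 0.91).

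The other 5 enzymes changed direction. Cers6 was -0.07 and -0.20 on log2 FPKM plus 1 and plus 0.1, -0.24 with the replicate block, and -1.0 to 0.51 with 1 liver left out. Degs1 was -0.02 with library sizes alone, -0.01 with the length trend removed and -0.04 to 0.18 with 1 liver left out. With 1 liver left out, Sgms2 lay between -0.05 and 0.37, Ugcg between -0.13 and 0.70 and Acer2 between -0.16 and 0.67. In the shares, the difference of HCD minus RD lay between -0.570 and 1.00 percentage points for Cers2, 2.29 and 6.90 for Sgms1, -1.07 and 0.529 for Cers6, -4.65 and 5.09 for Ugcg, and -9.94 and 4.63 for Acer2. The leukocyte median was -0.13 without HCD 1. The cause of these changes was not tested.

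Replicate numbers did not pair the livers: deviations of same-numbered livers had r of -0.076, 0.088 and -0.041, so the replicate block is a comparison of numbers only. Hmgcs1 lost its call in 8 alternatives (adjusted p of 0.0528 to 0.142, among them each liver left out but HCD 1), with no change of direction. The 10 enzymes had 61 counts or more in each liver, and the part of depth in their spread was not tested.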
